A study of Homo sapiens with 8 samples.

Results

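The genes described here were protein-coding genes that gave almost no reads in one of 2 engineered G401 lines while they were expressed in the other. G401 is an established line of rhabdoid kidney tumor cells without SMARCB1, a subunit shared by SWI/SNF complexes, which remodel chromatin. Both lines were Tet-On derivatives of it, so that doxycycline (Dox) induces SMARCB1 in the SMARCB1 line and GFP in the GFP control line. Cells were kept for 12 h with Dox at 0.1 µg/ml or with matching dimethylsulfoxide (DMSO), which gave 4 groups of 2 libraries (SMARCB1 DMSO, SMARCB1 Dox, GFP DMSO, GFP Dox). A gene was taken as silent when the 2 DMSO libraries of a line held at most 5 counts in sum, and as expressed when both DMSO libraries of the other line held a CPM of at least 1 (counts scaled to a library total of 1000000 over all genes). Of 20015 protein-coding genes matched to GENCODE, 11125 were expressed in either line and 66 were silent in the other line. Of these 66 genes, 44 were silent in the SMARCB1 line and 22 were silent in the GFP line. Protocadherins, zinc finger genes, HOX genes, collagens, laminins, integrins, carbohydrate sulfotransferases of the CHST family, glypicans, MGST1, BMP7 and PAPPA were left out by symbol, which removed 5 further genes from each set. The genes were thus selected on their counts in the 4 DMSO libraries, and the difference between the DMSO groups is given only as a description.

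Whether a gene is silent or expressed is set at its promoter and enhancers by transcription factors, by nucleosome positions and by marks on histones and DNA. SWI/SNF complexes move and evict nucleosomes with energy from ATP and oppose Polycomb repression at many promoters, whereas methylation of CpG dinucleotides can keep a promoter closed through many cell divisions. The comparison of Dox with DMSO asked which of the silent genes gave reads once SMARCB1 was present.

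Counts assigned to genes summed to between 29632090 and 37597477 per library. SMARCB1 itself had 10 and 21 counts with SMARCB1 DMSO, 30474 and 29383 counts with SMARCB1 Dox, and 0 counts in the 4 GFP libraries. The scaling factor of SMARCB1 DMSO replicate 1 was 0.907, apart from the range of 0.978 to 1.04 of the other 7 libraries. VIM, KRT8 and KRT18, which rhabdoid cells express, summed to between 1600 and 1920 CPM in each library. Endothelial markers summed to at most 0.893 CPM, renal tubule markers to at most 0.86 CPM and neuron markers to at most 0.156 CPM. Leukocyte markers reached at most 3.59 CPM, mostly from CD68, which fell from 2.63 to 1.4 CPM with SMARCB1 Dox (edgeR adjusted p = 0.0222), while PTPRC had at most 2 counts and CD3E 0 counts in any library. The methods state that 6 plates were pooled per condition and that experiments were done in duplicate. They do not say whether the 2 replicates were separate cultures. The p-values thus measure only the spread between these libraries, which may be technical. Each construct was present in 1 engineered line, so an effect of the construct at rest and a difference between the lines cannot be told apart. In bulk RNA, fewer cells that express a gene and less RNA per cell cannot be told apart either.

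The promoters of the genes silent in the SMARCB1 line were less rich in CpG than those of expressed genes in general. The RefSeq promoter table (GRCh38.p14) held 36 of the 44 genes and 9145 of the 11125 expressed genes. Over the 250 bases before the most upstream start, 17 of the 36 promoters (47.2%) had a ratio of observed to expected CpG of at least 0.6, compared with 83.6% of the 9145. The median ratio was 0.517 against 0.836. Among 1150 genes whose highest DMSO level was 1 to 5 CPM, 71.2% reached this ratio, with a median of 0.773. For the genes silent in the GFP line, only 16 of 22 promoters were in the table, so their values are a description. Of these 16, 7 (43.8%) reached this ratio, with a median of 0.513. The lower CpG content was thus not particular to the genes silent in the SMARCB1 line. Among all 15344 protein-coding genes in the table, 64% reached it, with a median of 0.74. Neither DNA methylation nor histone marks were measured.

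**Figure D1:**
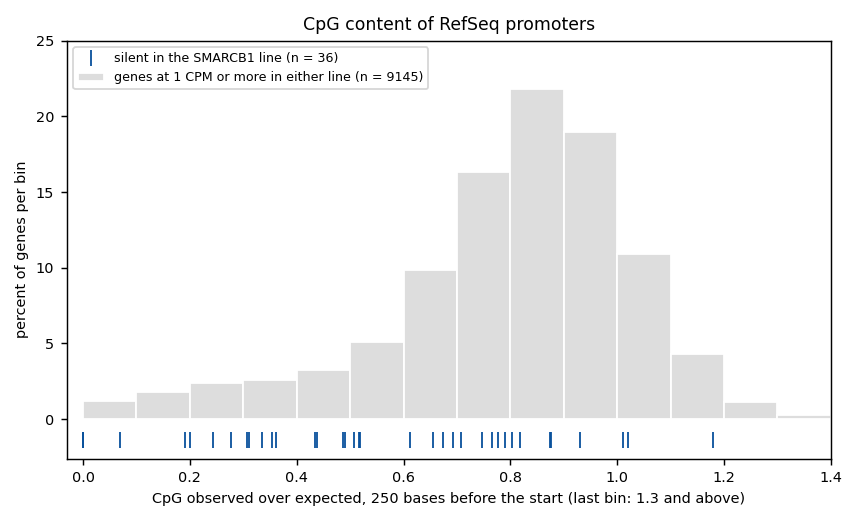
Grey bars give the percent of 9145 expressed protein-coding genes per bin of the ratio of observed to expected CpG in the 250 bases before the start, and each blue tick is 1 of 36 genes silent in the SMARCB1 line. The ticks run from 0 to 1.18, and 17 of them lie at 0.6 or above, where most of the grey bars stand.

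Parts of 3 promoters are shown because they belong to genes at both ends of the response to SMARCB1 described next. WNT6 and SLC13A4 gave the most reads with Dox among the 44 genes, and ARMCX2 gave none. In WNT6 (chr2:218859555-218859804, plus strand) and ARMCX2 (chrX:101659851-101660100, minus strand), capitals mark CpG dinucleotides. In SLC13A4 (chr7:135728205-135728347, minus strand), the 143 bases between annotated exons are given and capitals mark a match to TGANTCA, the AP-1 motif. In GENCODE, SLC13A4 spans 135681231 to 135729258, so this stretch lies inside the gene and not before it.
WNT6: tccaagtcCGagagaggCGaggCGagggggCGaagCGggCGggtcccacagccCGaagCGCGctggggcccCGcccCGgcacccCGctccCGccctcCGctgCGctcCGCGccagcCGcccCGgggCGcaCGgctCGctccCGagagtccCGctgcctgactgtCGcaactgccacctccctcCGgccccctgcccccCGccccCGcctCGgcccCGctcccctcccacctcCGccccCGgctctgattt
SLC13A4: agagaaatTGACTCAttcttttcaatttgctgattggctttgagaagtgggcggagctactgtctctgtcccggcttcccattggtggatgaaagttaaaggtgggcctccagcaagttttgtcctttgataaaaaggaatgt
ARMCX2: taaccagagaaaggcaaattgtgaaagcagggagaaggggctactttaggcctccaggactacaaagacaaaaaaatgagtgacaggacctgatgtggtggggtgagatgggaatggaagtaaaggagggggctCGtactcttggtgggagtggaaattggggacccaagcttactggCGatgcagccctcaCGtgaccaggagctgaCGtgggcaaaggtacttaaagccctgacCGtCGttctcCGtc
The WNT6 window held 32 CpG dinucleotides with a ratio of 0.877, and the ARMCX2 window held 7 with a ratio of 0.434. TGANTCA, which reads the same on both strands, occurred in 1 of the 36 promoters (2.78%) and in 3.32% of the 9145. The 1 match was that of SLC13A4, in the stretch inside the gene. TATAAA on either strand occurred in 3 of the 36 (8.33%), those of GIP, CCL25 and RFPL4B, and in 5.06% of the 9145. Neither motif contains the other. A match is a description of the letters in this window.

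Among the 44 genes silent in the SMARCB1 line, 7 rose with SMARCB1 Dox and none fell. The 7 genes were SLC13A4, ABTB3, GLUL, WNT6, ABCG2, NYX and CFD. They made up 15.9% of the 44, and 8.33% of the 15931 genes tested were called higher in the same comparison and 5.69% lower (edgeR quasi-likelihood test, Benjamini-Hochberg adjusted p under 0.05). All 44 passed the filter on low counts. Apart from SLC13A4, WNT6 and ABCG2, whose SMARCB1 Dox counts also sufficed, they passed only through the GFP line where they were expressed. The DMSO counts that chose the genes also stand in this comparison, so the share is not independent of the choice and nothing is read from it alone. In each of the 7 genes, both Dox libraries stood above both DMSO libraries. The same was so for genes that were not called, such as GRIP2, MYO3B, TRIM47, MXRA8, TAMALIN, MTMR7, MFRP and SLFN11. The share over all genes was not counted, so nothing is read from this separation. None of the 44 reached 1 CPM in both SMARCB1 Dox libraries.

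SLC13A4, a sodium-coupled sulfate transporter, had 0 and 0 counts with SMARCB1 DMSO, 15 and 30 with SMARCB1 Dox, 78 and 84 with GFP DMSO, and 80 and 84 with GFP Dox. The groups of the SMARCB1 line did not overlap, and the Dox libraries remained below all GFP libraries. Taking 3 counts over the group as the floor of a group without reads, SLC13A4 was at least 13.2-fold higher with Dox (edgeR adjusted p = 8.87e-05), and reached 26.2% of its GFP Dox level (95% exact interval 18.4 to 36.6). Intervals and floors here take in no more than counting error, because PCR copies of a molecule are not independent. STMP1, which overlaps SLC13A4 on the opposite strand, had 2967 and 3404 counts with SMARCB1 DMSO and 3415 and 3433 with SMARCB1 Dox (edgeR adjusted p = 0.643). FAM180A, which overlaps on the same strand, had 0 counts in the SMARCB1 line.

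ABTB3, which encodes an ankyrin repeat and BTB domain protein and lies on chromosome 12 between 107318421 and 107659642 (GRCh38), was among the most expressed of the 44 genes in the GFP line. It had 1662 and 1901 counts with GFP DMSO, 1587 and 1922 with GFP Dox, 0 and 1 with SMARCB1 DMSO, and 8 and 15 with SMARCB1 Dox. The Dox counts of the SMARCB1 line were few but stood apart from its DMSO counts. The ratio of Dox to DMSO was 20.3 with a wide counting interval of 3.29 to 834 (edgeR adjusted p = 0.00129), and the Dox level was 0.626% of that in GFP Dox (0.396 to 0.941).

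GLUL, the glutamine synthetase that makes glutamine from glutamate and ammonia, lies on chromosome 1 between 182378098 and 182392206. Its counts were 347 and 369 with GFP DMSO, 309 and 388 with GFP Dox, 0 and 1 with SMARCB1 DMSO, and 8 and 14 with SMARCB1 Dox. As for ABTB3, a few reads per library appeared with SMARCB1, without overlap between Dox and DMSO. The ratio was 19.4 (3.13 to 800, edgeR adjusted p = 0.00236), and the level reached 3.02% of GFP Dox (1.88 to 4.6).

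WNT6, a secreted Wnt ligand, had 0 and 3 counts with SMARCB1 DMSO, 29 and 11 with SMARCB1 Dox, 109 and 112 with GFP DMSO, and 97 and 116 with GFP Dox. The Dox replicates differed from each other more than for the genes above, and still both exceeded the DMSO libraries. The ratio was 11.7 (3.74 to 59.3, edgeR adjusted p = 0.00255), at 17.9% of GFP Dox (12.5 to 25.2). WNT10A, the next gene, 6619 bases away, had 0 counts in both SMARCB1 DMSO libraries, 1 and 6 with SMARCB1 Dox, and 23 to 29 in the GFP libraries (edgeR adjusted p = 0.0851).

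ABCG2, an efflux pump of the ABC family known for multidrug resistance, had 2 and 2 counts with SMARCB1 DMSO, 12 and 13 with SMARCB1 Dox, 86 and 111 with GFP DMSO, and 83 and 85 with GFP Dox. The replicates were close to each other and Dox did not overlap DMSO. The ratio was 5.50 (1.9 to 21.8, edgeR adjusted p = 0.013), at 14.2% of GFP Dox (8.94 to 21.7).

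NYX, a leucine-rich repeat proteoglycan of the retina, and CFD, the complement factor D protease, had the fewest reads of the called genes. NYX had 0 and 0 counts with SMARCB1 DMSO, 13 and 2 with SMARCB1 Dox, 53 and 57 with GFP DMSO, and 42 and 69 with GFP Dox. CFD had 0 and 0 counts with SMARCB1 DMSO, 5 and 5 with SMARCB1 Dox, 72 and 54 with GFP DMSO, and 42 and 86 with GFP Dox. Most NYX reads thus came from 1 Dox library, and the CFD reads were few in both. NYX was at least 4.40-fold higher (edgeR adjusted p = 0.0183) and CFD at least 2.94-fold higher (edgeR adjusted p = 0.0351). MED16, which overlaps CFD on the opposite strand, rose as well, with a log2 fold change of 0.34 (edgeR adjusted p = 0.0243), and the strand setting of the counting was not stated.

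The calls for SLC13A4, ABTB3 and GLUL held when any 1 library was left out. Without SMARCB1 DMSO replicate 1 or without SMARCB1 DMSO replicate 2, the calls for ABCG2, NYX and CFD were lost and 4 of the 7 remained. Without SMARCB1 Dox replicate 1, those for WNT6, NYX and CFD were lost, which also left 4, and without SMARCB1 Dox replicate 2 only CFD was lost. DESeq2 called all 7, with adjusted p-values from 0.000167 for SLC13A4 to 0.0309 for CFD.

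**Figure D2:**
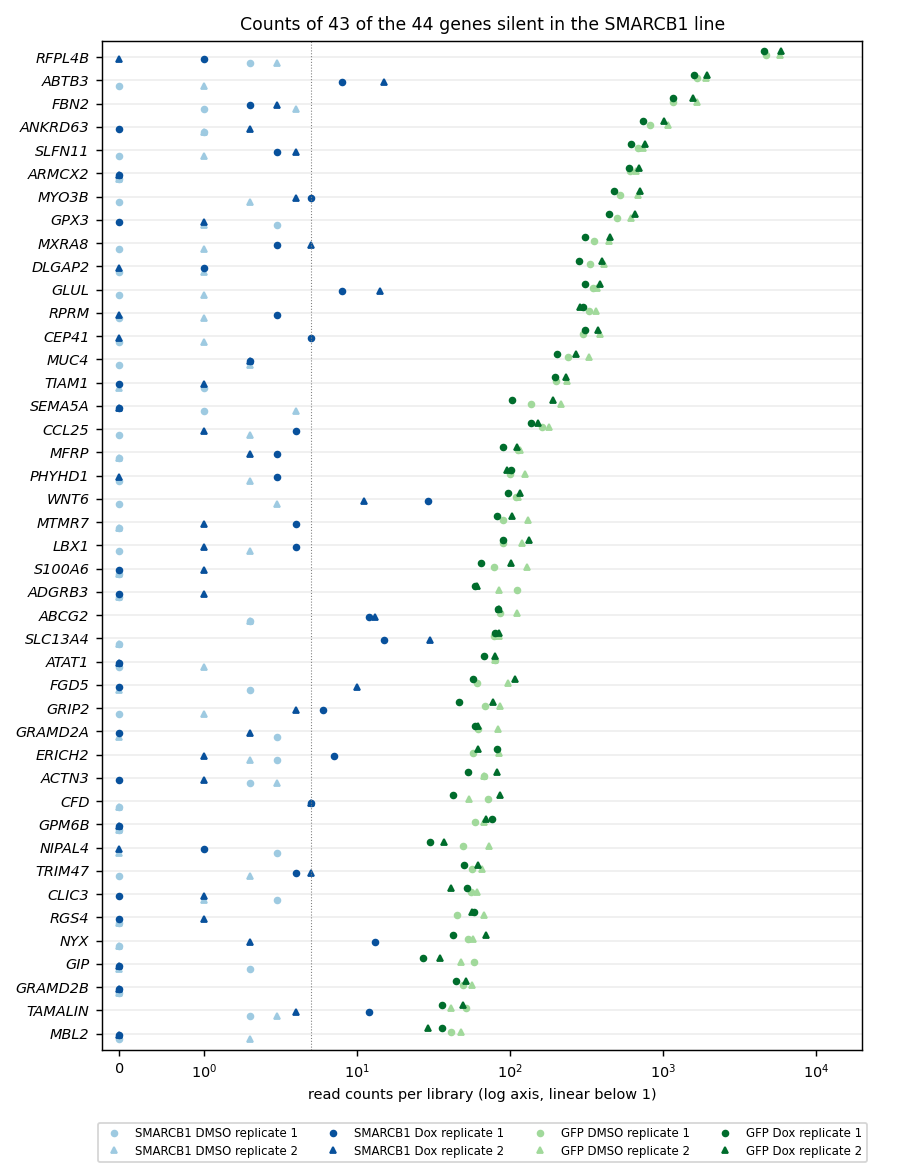
Read counts per library, on a log axis that is linear below 1, of 43 of the 44 genes silent in the SMARCB1 line, ordered by their level in GFP DMSO. Blue symbols are SMARCB1 libraries, green symbols GFP libraries, dark symbols Dox, and the dotted line marks 5 counts. Within each gene the green symbols lie right of the blue ones. For SLC13A4, ABTB3, GLUL, WNT6, ABCG2, NYX and CFD both dark blue symbols lie right of the light blue ones. They also do so for genes that were not called, such as GRIP2, MXRA8 and SLFN11.

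A wider group gave a few reads with SMARCB1 Dox. Above the limit of 5 counts summed over both SMARCB1 Dox libraries were 15 of the 44 genes (34.1%), compared with 13.9% of the 3531 protein-coding genes that had at most 5 counts with SMARCB1 DMSO and a count in any library. Those 3531 genes need not be expressed in the GFP line, so they are a background and not a matched control. The 8 genes above the limit that were not called were TAMALIN, FGD5, GRIP2, MYO3B, TRIM47, MXRA8, ERICH2 and SLFN11. TAMALIN, a scaffold protein of neuronal receptors, had 2 and 3 counts with SMARCB1 DMSO, 12 and 4 with SMARCB1 Dox, and between 36 and 51 in the GFP libraries (edgeR adjusted p = 0.246). At an unadjusted p under 0.05 were 13 of the 44 genes, the 7 called ones among them. The uncalled GRIP2, MFRP, MTMR7, MXRA8 and SLFN11 were also below it and had more counts with Dox. So was SEMA5A, which had 1 and 4 counts with DMSO and 0 and 0 with Dox. The share of all genes below this unadjusted p was not counted, so nothing is read from the 13. By adjusted p, 14.0% of all genes tested were called in either direction. Over all 44 genes, the SMARCB1 DMSO libraries held 31 and 50 counts and the SMARCB1 Dox libraries 165 and 148. The 7 called genes held 180 of the 313 Dox counts, and the other 37 genes went from 72 counts to 133. The median gene had 1.5 counts with DMSO and 3.5 with Dox, and 27 genes had more, 10 fewer and 7 the same number. The genes were chosen for low DMSO counts, which favours a rise with Dox without any effect. These counts are also unscaled, and both SMARCB1 Dox libraries were larger than both SMARCB1 DMSO libraries. They are therefore a description.

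Several of the genes most expressed in the GFP line gave almost no reads with SMARCB1 Dox. The 10 highest in CPM per kb of exon in GFP DMSO began with RFPL4B (76.3), RPRM (6.74), ABTB3 (6.23), ANKRD63 (5.58) and GPX3 (5.1). ARMCX2 (4.95), SLFN11 (3.3), MXRA8 (3.02), S100A6 (2.9) and CCL25 (2.36) followed. Of these 10, ABTB3 alone was called. ABTB3, MXRA8 and SLFN11 had more than 5 counts summed over the SMARCB1 Dox libraries (23, 8 and 7). With 15.9% called in the whole set, 1 call among 10 genes is too few to show a lower share. RFPL4B, of the ret finger protein-like family, had 4703 and 5783 counts with GFP DMSO, 4541 and 5903 with GFP Dox, 2 and 3 with SMARCB1 DMSO, and 1 and 0 with SMARCB1 Dox. Its SMARCB1 Dox level was thus 0.00915% of that in GFP Dox (0.000232 to 0.051).

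ARMCX2, an armadillo repeat gene of Xq22 on chromosome X between 101655281 and 101659850, had 605 and 661 counts with GFP DMSO, 594 and 694 with GFP Dox and 0 in all 4 SMARCB1 libraries. With the SMARCB1 Dox libraries at 0, a level of up to 0.274% of GFP Dox remains possible. GPM6B, a membrane glycoprotein of neurons and glia, and GRAMD2B were the other two genes at 0 in all 4 libraries of the line. SLFN11, a helicase-like protein that blocks stressed replication forks and sensitises cells to DNA-damaging drugs, had 681 and 742 counts with GFP DMSO, 611 and 762 with GFP Dox, 0 and 1 with SMARCB1 DMSO, and 3 and 4 with SMARCB1 Dox. Both Dox counts were above the DMSO counts, and the gene was not called (ratio 6.16, 0.792 to 278, edgeR adjusted p = 0.157). FBN2, the fibrillin of extracellular microfibrils, had 1162 and 1655 counts with GFP DMSO, 1 and 4 with SMARCB1 DMSO, and 2 and 3 with SMARCB1 Dox, so the groups of the SMARCB1 line overlapped. GPX3, the secreted glutathione peroxidase, had 497 and 613 counts with GFP DMSO, 3 and 1 with SMARCB1 DMSO, and 0 and 1 with SMARCB1 Dox. Over the 44 genes, the median SMARCB1 Dox level was 0.828% of that in GFP Dox. It was under 1% for 23 genes and over 10% for 5, namely SLC13A4, TAMALIN, WNT6, ABCG2 and NYX.

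The same counts were taken for the 22 genes silent in the GFP line, which were chosen by low GFP DMSO counts and received Dox without SMARCB1. None of them was called in GFP Dox against GFP DMSO, where 0.0% of all genes tested were called by edgeR and 0 by DESeq2, so the absence of a call sets these genes apart from no others. An unadjusted p under 0.05 was reached by 266 of the 15931 genes and by 2 of the 22, MAMLD1 and CDYL2. Above 5 counts with GFP Dox were 3 of the 22 (13.6%), against a background of 6.64% of 3375 protein-coding genes. MAMLD1, a mastermind-like nuclear protein, had 0 and 1 counts with GFP DMSO and 7 and 4 with GFP Dox. CDYL2, a chromodomain protein, had 2 and 0 with GFP DMSO and 5 and 9 with GFP Dox. RUNX2, the transcription factor of bone formation, had 4 and 0 counts with GFP DMSO and 0 and 12 with GFP Dox, so that its groups overlapped. The 22 genes together had 38 counts with DMSO and 65 with Dox, and 8 of them had 0 counts in all 4 GFP libraries.

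**Figure D3:**
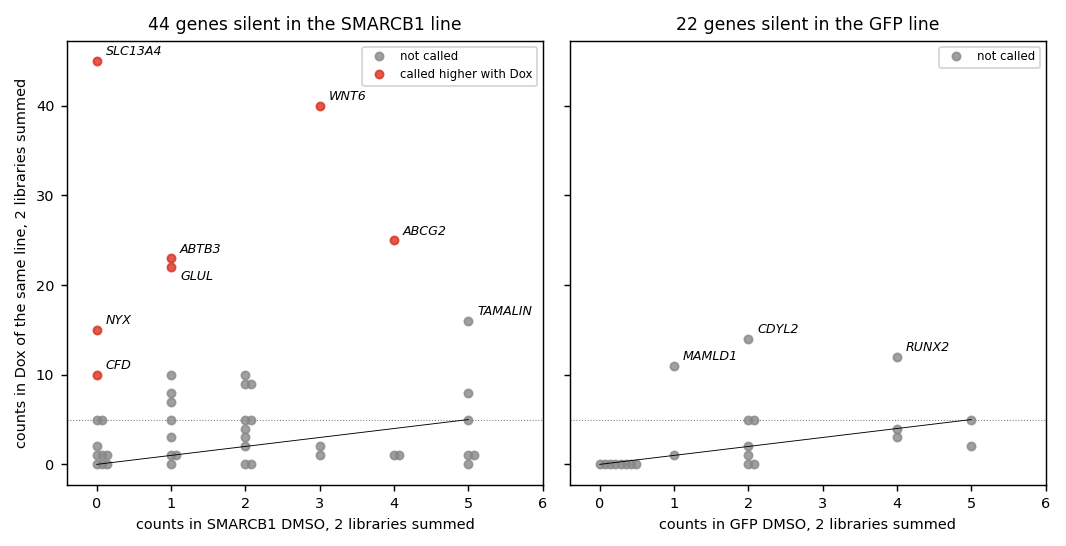
Each point is a gene, with the counts summed over the 2 DMSO libraries of the line in which it was silent on the x axis and those over the 2 Dox libraries on the y axis, for the SMARCB1 line (left) and the GFP line (right). Points at the same place are set slightly apart, the slanted line marks equal counts and the dotted line 5 counts. The 7 called genes (red) lie at 10 to 45 Dox counts, and in the GFP line the highest of the 22 genes lies at 14.

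The Dox effects of the lines were also compared directly. The difference between them was called for 5 of the 66 genes, all higher in the SMARCB1 line, and for 4.71% of all genes tested (3.07% higher). The DMSO counts that chose the genes stand in this comparison too, so it is not independent of the choice. SLC13A4, without reads in SMARCB1 DMSO, had a log2 difference of at least 3.60 over the floor of 3 counts (edgeR adjusted p = 0.001). The fitted values of the other 4 rest on 1 to 4 counts in SMARCB1 DMSO. They were ABTB3 with 3.98 (SE 0.817, adjusted p = 0.00521), GLUL with 3.94 (SE 0.871, adjusted p = 0.00898), WNT6 with 3.42 (SE 0.811, adjusted p = 0.015) and ABCG2 with 2.52 (SE 0.686, adjusted p = 0.0353). For NYX and CFD, the edgeR adjusted p-values of the difference were 0.063 and 0.0978, so edgeR did not show their rise in the SMARCB1 line to differ from the GFP line, whereas DESeq2 called the difference for NYX (adjusted p = 0.0415) and not for CFD (0.0931). Without SMARCB1 DMSO replicate 1, 2 of the 5 calls remained, those for SLC13A4 and ABTB3. Without SMARCB1 Dox replicate 1, those for WNT6 and ABCG2 were lost. The call for GLUL was also lost without SMARCB1 Dox replicate 2, and that for ABCG2 when any 1 of the 8 libraries was left out. DESeq2 called 3 of the 66 genes in this comparison and missed ABTB3 (adjusted p = 0.0625), GLUL (0.0736) and ABCG2 (0.0762).

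The lines remained apart with Dox, in the 4 libraries that did not choose the genes. In SMARCB1 Dox against GFP Dox, all 44 genes silent in the SMARCB1 line were lower and all 22 genes silent in the GFP line were higher (largest edgeR adjusted p = 0.000467, for MAMLD1). The genes were chosen for a large difference between the lines, which favours this outcome. The spread used in the test was also estimated over all 8 libraries, the DMSO libraries among them. Of all genes tested, 38.8% were called in this comparison, 19.2% lower and 19.6% higher. The smallest difference among the 44 was that of SLC13A4, with a log2 fold change of -1.93 (SE 0.336, edgeR adjusted p = 9.57e-05). ABTB3 differed by -7.30 (SE 0.178), SLFN11 by -7.63 (SE 0.248) and GLUL by -5.03 (SE 0.248). Fitted values of genes without reads in a group depend on the prior count and are not given.

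**Figure D4:**
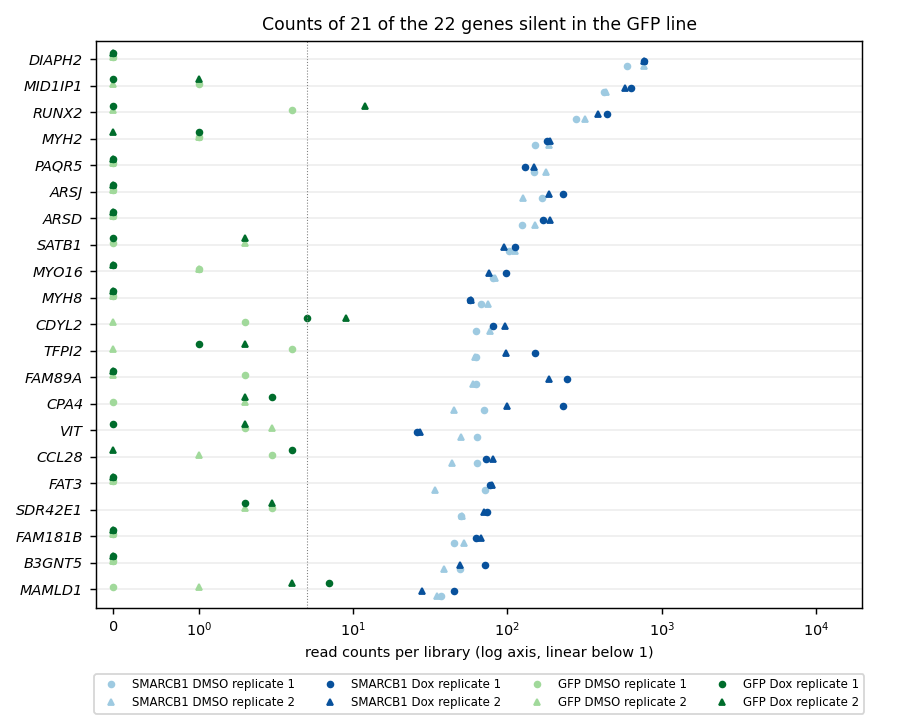
Read counts per library, on a log axis that is linear below 1, of 21 of the 22 genes silent in the GFP line, ordered by their level in SMARCB1 DMSO. Blue symbols are SMARCB1 libraries, green symbols GFP libraries, dark symbols Dox, and the dotted line marks 5 counts. Within each gene the blue symbols lie right of the green ones, and dark green symbols pass the dotted line for RUNX2, CDYL2 and MAMLD1.

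The genes silent in the GFP line were expressed in the SMARCB1 line at 1.16 to 22 CPM, with a median of 2.27 CPM. DIAPH2, a formin that nucleates and elongates actin filaments, lies on chromosome X between 96684712 and 97604997. It had 598 and 774 counts with SMARCB1 DMSO, 767 and 765 with SMARCB1 Dox and 0 in all 4 GFP libraries. In SMARCB1 DMSO it stood at 22 CPM ± 2.09 (SD, n = 2), with no detectable effect of Dox (log2 fold change -0.02, SE 0.124, edgeR adjusted p = 0.951). Among the 10 highest per kb of exon in SMARCB1 DMSO were MID1IP1 (2.88 CPM per kb), DIAPH2 (2.32), RUNX2 (1.17), ARSJ (0.937), MYH2 (0.847), PAQR5 (0.844), FAM89A (0.828), TFPI2 (0.826) and ARSD (0.63). MID1IP1, which promotes fatty acid synthesis, had 425 and 438 counts with SMARCB1 DMSO, 635 and 583 with SMARCB1 Dox and at most 1 in a GFP library. RUNX2 had 279 and 318 counts with SMARCB1 DMSO and 444 and 389 with SMARCB1 Dox, and neither gene was called for Dox (edgeR adjusted p = 0.158 and 0.43).

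In the line that expressed them, 3 of these 22 genes changed with SMARCB1 Dox, which is 13.6% beside 14.0% of all genes tested. FAM89A had 63 and 60 counts with SMARCB1 DMSO and 245 and 185 with SMARCB1 Dox, without overlap. Its level rose from 1.99 to 6.09 CPM (log2 fold change 1.61, SE 0.256, edgeR adjusted p = 0.000165). CPA4, a secreted carboxypeptidase, had 71 and 45 counts with DMSO and 230 and 100 with Dox, and rose by 1.30 (SE 0.345, edgeR adjusted p = 0.0131). VIT, the matrix protein vitrin, had 64 and 50 counts with DMSO and 26 and 27 with Dox, and fell by 1.30 on the log2 scale (SE 0.401, edgeR adjusted p = 0.0334). FAM89A alone was called without SMARCB1 Dox replicate 1. The call for CPA4 was also lost without SMARCB1 DMSO replicate 2 (adjusted p = 0.123), and that for VIT without SMARCB1 DMSO replicate 1, without SMARCB1 Dox replicate 2 and in DESeq2 (adjusted p = 0.0805). TFPI2, an inhibitor of serine proteases, had 63 and 62 counts with DMSO and 152 and 98 with Dox, and missed the threshold (edgeR adjusted p = 0.0897). The median log2 fold change of the 22 genes was 0.23, beside -0.0038 over all genes. In GFP Dox against GFP DMSO, none of the 44 genes that the GFP line expresses was called by edgeR or DESeq2 or had an unadjusted p under 0.05 in edgeR, with log2 fold changes between -0.76 and 0.31 and a median of -0.02.

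**Figure D5:**
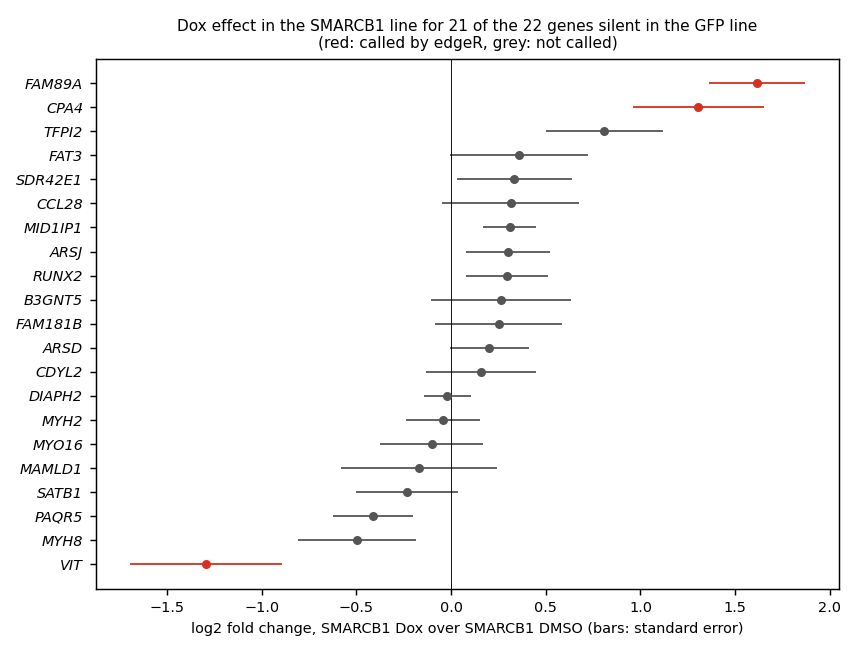
Log2 fold change of SMARCB1 Dox over SMARCB1 DMSO with its standard error for 21 of the 22 genes that were silent in the GFP line and expressed in the SMARCB1 line. FAM89A and CPA4 (red) lie above 1, VIT (red) lies at -1.30, and the other 18 genes drawn (grey) lie between -0.50 and 0.81.

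No single function covered either set. Sorted by textbook roles after the genes were known, the 44 genes held 12 membrane proteins, such as ABCG2, SLC13A4, SEMA5A and MUC4, and 8 signalling and scaffold proteins, such as RGS4, TIAM1 and FGD5. A further 7 were secreted or matrix proteins (WNT6, CCL25, GIP, MBL2, CFD, FBN2 and GPX3), 4 were cytoskeletal or ciliary (MYO3B, CEP41, ATAT1 and ACTN3), and 4 were nuclear, innate immune or ubiquitin-related (LBX1, SLFN11, TRIM47 and RFPL4B). GLUL and PHYHD1 were enzymes and 7 genes, ABTB3 and ARMCX2 among them, fell under none of these roles. The 7 called genes were 3 membrane or surface proteins (SLC13A4, ABCG2 and NYX), 2 secreted proteins (WNT6 and CFD), 1 enzyme (GLUL) and ABTB3, which has none of these roles. Among the 22 genes were 5 secreted proteins (TFPI2, CPA4, CCL28 and VIT among them), 4 cytoskeletal proteins (DIAPH2, MYH2, MYH8 and MYO16), 4 enzymes (ARSD, ARSJ, B3GNT5 and SDR42E1) and 4 nuclear proteins (RUNX2, SATB1, MAMLD1 and CDYL2). By classes built from gene symbols, cytoskeleton and motor genes made up 4 of the 22 (18.2%) and 2.12% of the 11125 expressed genes. Of the 44, channels and transporters made up 4 (9.09%, beside 3.16%) and secreted factors and their regulators 4 (9.09%, beside 1.6%). These shares are descriptions, and 26 of the 44 and 12 of the 22 fell in no class, as did 81.6% of the expressed genes.

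The genes were scattered over the genome. The 44 genes lay on 17 chromosomes and the 22 on 13. Chromosome X held 3 of the 44 (6.82%, GPM6B, NYX and ARMCX2) and 4 of the 22 (18.2%, DIAPH2, MID1IP1, ARSD and MAMLD1), beside 3.04% of expressed genes. Within 1000000 bases of each other lay MYH8 and MYH2, a pair of skeletal muscle myosin genes on chromosome 17 that were both silent in the GFP line. MYO3B and ERICH2 on chromosome 2 and GRIP2 and FGD5 on chromosome 3 were close pairs silent in the SMARCB1 line, and CPA4 and CEP41, 69591 bases apart on chromosome 7, were silent in different lines. Of the 88 nearest protein-coding neighbours of the 44 genes, 56 were expressed in both lines, 27 in neither and 5 in the GFP line alone (DKK1, FBN3, GALNT13 and GAD1 among them). GALNT13 was not silent in the SMARCB1 line, with 53 and 32 DMSO counts, and missed the expression limit only in replicate 2. Of the 44 neighbours of the 22 genes, 18 were expressed in both lines, 25 in neither and 1, HSD17B2, in the SMARCB1 line alone. A neighbour expressed in the silent line was thus present beside 37 of the 44 genes and 14 of the 22.

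Relatives of 5 of these genes and the DNA methylation machinery were read beside the 8.33% of all genes tested that were higher and the 5.69% that were lower with SMARCB1 Dox. Of the formins other than DIAPH2, 5 of 10 tested rose (DIAPH3, DAAM1, FHDC1, FMNL3 and FMNL1) and none fell. DIAPH3 rose from 43.9 to 72.7 CPM (edgeR adjusted p = 8.4e-06), whereas DIAPH1 stood at 170 and 193 CPM (edgeR adjusted p = 0.154). Of the Schlafen genes other than SLFN11, 1 of 3 tested rose, SLFN5, the neighbour of SLFN11, from 2.38 to 7.15 CPM (edgeR adjusted p = 4.04e-06). SLFN12 on its other side stood at 21.6 and 18.8 CPM (edgeR adjusted p = 0.307). Of the BTB and ankyrin genes other than ABTB3, 3 of 11 tested rose (ABTB2, KCTD1 and BTBD9) and none fell. ABTB2, the closest relative of ABTB3 on the list, went from 1.21 to 4.14 CPM (edgeR adjusted p = 0.000518) and stood at 12.8 CPM in GFP DMSO. Of 17 genes of glutamine and glutamate metabolism tested besides GLUL, 3 rose (SLC1A1, GPT2 and GFPT1) and 1, SLC38A2, fell. SLC1A1, a glutamate transporter, rose from 3.3 to 8.42 CPM (edgeR adjusted p = 1.66e-05). Of 15 ARMCX, BEX and TCEAL genes tested besides ARMCX2, none was called by edgeR, and ARMCX3 stood at 19.5 and 19.9 CPM. Of 13 genes of the DNA methylation machinery, 3 rose (DNMT3B, DNMT3A and UHRF1), with DNMT3B going from 34.3 to 55.4 CPM (edgeR adjusted p = 1.13e-05). Without the silent genes themselves, the median log2 fold changes were 0.40 for the formins, 0.14 for the BTB and ankyrin genes, 0.089 for the glutamine genes, -0.24 for the ARMCX, BEX and TCEAL genes and 0.12 for the DNA methylation genes, beside -0.0038 over all genes. No gene of these 6 lists was called in GFP Dox against GFP DMSO, in which edgeR called no gene at all.

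The limits of the rule passed through a continuous range of counts. Just inside the silence limit in the SMARCB1 line were ACTN3, ERICH2 and FBN2 with 5 DMSO counts each, and just outside were CSF1R, GLT8D2 and GSTM5 with 6. Just inside the expression limit were TAMALIN (1.09 CPM in the lower GFP DMSO library) and MBL2 (1.24), and just outside were IRAG1 (0.984), MARCKS and RHOBTB3 (0.931 each). For the GFP line, SDR42E1 and VIT with 5 counts and CCL28 with 4 lay inside, and DPEP3 and TSPAN15 with 6 and ARHGAP28 with 7 lay outside. The expression limit there separated FAT3 (1.01 CPM), MAMLD1 (1.04) and B3GNT5 (1.16) from SAMD12 (0.996), MTMR8 (0.902) and ADD2 (0.84).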

How the data were processed

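Total RNA of 8 libraries was analysed from the deposited raw counts, for which the authors ran STAR and HTSeq on hg38 with GENCODE v42 (intersection-strict mode over exons). Tool versions and the strand option were not given in the sources used here, so counts of overlapping genes and of near-identical copies are uncertain. The labels name ribosome profiling kits and the methods a directional RNA kit, so the library chemistry is uncertain. Entries that name no gene (27% to 29.3% of reads) were left out. Groups and replicate numbers came from the sample titles. Symbols, gene types and exon lengths were taken from GENCODE v44, and promoters from RefSeq (GRCh38.p14).

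All 69215 genes were offered to edgeR 4.0.16 (R 4.3.3), of which filterByExpr with a minimum of 10 counts kept 15931. After TMM scaling, all libraries entered 1 quasi-likelihood model that had a mean for each group. The threshold for a call was an adjusted p (Benjamini-Hochberg, over all genes tested) of 0.05. Printed CPM use TMM sizes, except in the rule for silence and expression. Ratios of counts within the silent line have exact 95% Poisson intervals. The steps were tested on simulated counts. DESeq2 1.42.0, which the study's methods name, other scalings, no filter, a replicate block and leaving out each library were alternatives. The members, gene lists, symbol classes and tests were chosen with earlier results of these data known, and the roles after the members were known. Named genes were ABTB3, GLUL, SLFN11, DIAPH2 and ARMCX2, called members, the 10 highest per kb in each set, genes nearest to each limit, and members of the 6 family and pathway lists and of the marker lists. The nearest genes by correlation, which the rule allowed, were not computed. A gene of each set is not reported here by name. Other genes named as examples were chosen after their values were seen.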

Additional observations from a re-analysis of the deposited data

Results flagged for a closer look

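By the edgeR test of the difference itself, the effect of Dox was called different between the SMARCB1 line and the GFP line for 5 genes. The same contrast was called for 4.71% of all genes tested, 3.07% of them higher in the SMARCB1 line and 1.64% lower. The log2 differences, SMARCB1 line over GFP line, were at least 3.60 for SLC13A4, which had no reads in SMARCB1 DMSO, 3.98 for ABTB3, 3.94 for GLUL, 3.42 for WNT6 and 2.52 for ABCG2. In the GFP line each of these genes was expressed with and without Dox, at 78 to 84 counts for SLC13A4 and 1587 to 1922 for ABTB3. In the SMARCB1 line each had at most 3 counts in a DMSO library. These DMSO counts also chose the genes, so the test is not independent of the choice. DESeq2 called the difference for SLC13A4 and WNT6 but not for ABTB3, GLUL or ABCG2 (DESeq2 adjusted p = 0.0625, 0.0736 and 0.0762). The difference compares a rise from near 0 in one line with the absence of a call at a measurable level in the other.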

How the results depend on the processing

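The alternatives were run for SLC13A4, ABTB3, GLUL, WNT6, ABCG2, NYX, CFD, FAM89A, CPA4, VIT, SLFN11 and DIAPH2, and the direction of the SMARCB1 Dox effect was kept under each of them except for DIAPH2. No alternative was run for the single genes of the lists. The uncalled effect on DIAPH2 reversed, to 0.071 with library totals as scaling, and ranged from -0.11 to 0.082 with 1 library left out, the last without SMARCB1 DMSO replicate 2. With the main setting, 14.0% of all genes tested were called for SMARCB1 Dox and 4.71% for the difference between the Dox effects. The SMARCB1 Dox effect was called in 10 of the 66 genes, and in 5 to 10 when 1 library was left out. A difference of the Dox effects was found for 5 genes, for 3 by DESeq2 and for 2 to 4 with 1 library left out. The rule gave 12, 69 and 15 genes silent in the SMARCB1 line with limits of 0 counts, of 10 counts and of 5 CPM in the other line, and 8, 35 and 3 in the GFP line. With 1 replicate it gave 75 to 92 and 38 to 46, since 5 counts were then allowed in 1 library. Of the 15 genes above 5 counts with SMARCB1 Dox, 7 had more than 10 and 5 had more than 5 in each library, with 6 to 9 when 1 replicate was used. For the 3 genes in the GFP line, 0 had more than 5 in each library, and 1 to 2 passed with 1 replicate. Over all genes, the 2234 calls for SMARCB1 Dox became 1462 without SMARCB1 DMSO replicate 1 and 1284 without SMARCB1 Dox replicate 1. In the GFP line 1 gene was called without the filter. Samples with the same replicate number correlated weakly in their deviations from the group means, by 0.0309 to 0.148, all positive. Whether samples with the same number share a batch was not tested. With the replicate block, 10 of the 66 genes were again called for SMARCB1 Dox and 6 for the difference. Over all genes, the calls went from 2234 to 3149 for SMARCB1 Dox and from 750 to 1282 for the difference. Counts of at most 30 per SMARCB1 library limit what can be told about the 7 silent genes called higher with SMARCB1 Dox.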
